A study of Homo sapiens with 4 samples.

Results

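The genes described here belong to or are named for the BCL2 family, which governs the mitochondrial route of programmed cell death. They were the spots whose platform gene symbol was BCL2, BCL2L1, MCL1, BAK1, BID, BAD, BIK, BCL2L11, BNIP3 or BNIP3L. Of these 10 genes 9 had a probe, BAD being the exception, and together they had 11 probes among 29640 that were not controls. For 10 of the probes the name came from the platform table, and for the other, a BCL2L1 probe, from the description printed in the scanner files. RNA came from DLD-1 and HT-29, established human colorectal cancer lines, each with and without 5-aza-2'-deoxycytidine, a cytidine analogue that is built into replicating DNA, traps DNA methyltransferases and so lowers CpG methylation over rounds of division. After 24 h of growth came a 96 h exposure at 1 µM, and each line's own untreated cells, for which no treatment is recorded, served as its control. Amplified treated and untreated RNA of a line shared 2 oligonucleotide arrays, array 1 with treated RNA in Cy5 and array 2 with the dyes exchanged. The series asked which genes silenced by methylation return after the drug.

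Proteins of the BCL2 family meet on the outer mitochondrial membrane. BCL2, BCL2L1 (BCL-XL) and MCL1 hold back cell death, BAK1 forms the pores that release cytochrome c, and the BH3-only proteins BID, BAD, BIK and BCL2L11 (BIM) carry death signals to the other members. BNIP3 and BNIP3L (NIX) sit on the same membrane but are better known as receptors that mark mitochondria for autophagy, and both are targets of the hypoxia-inducible factors. BNIP3 is known to be silenced by promoter methylation in part of colorectal cancers, and BIK in some other tumours.

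Ratios are log2 of treated over untreated signal, so that 1 is a doubling, after background correction and a loess fit within each array. A channel counted as above background where the spot exceeded its local background by more than 2 background SD. The labels settle the direction on array 1 of each line. On array 2 the labels list treated RNA as the first channel, while the scanner columns name no dye. The working reading, adopted from earlier results of these data, was that file channel 2 held treated RNA throughout. The opposite reading of array 2, the labels' channel order, is given beside the results. Under the working reading Pearson's r between repeat arrays was −0.45 in DLD-1 and 0.0010 in HT-29, taken across 18868 probes, which are not independent replicates. With array 2 turned these values become 0.45 and −0.0010, so the DLD-1 arrays oppose each other under the working reading and run the same way in the labels' channel order. Every direction below therefore depends on a reading that is not settled. No separate cultures are named, and each line therefore gave 1 replicate. The SD within a line covers repeat hybridisation with exchanged dyes, not cultures. It is given under the working reading and would differ with array 2 turned. At least 1 channel was above background at 22073 to 25787 probes per array, and with so few arrays precision is low throughout. Of 10 markers of colorectal epithelium, 9 were above background on DLD-1 array 1, without LGALS4, and 10 on each other array, but so were 6 to 7 of 8 fibroblast markers and 5 to 6 of 7 markers of blood cells. Of 3 endothelial markers 2 were above background on each array. LUM, CD79A and CDH5, markers of fibroblasts, B cells and endothelium, were at background on all 4 arrays. The other measured markers of those lists were above background on some or all arrays, so the lists do not tell cell types apart here.

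Because the drug lowers CpG methylation, the CpG content upstream of the members is shown first. RefSeq sequences of assembly GRCh38.p14 matched 7 members with 13 start sites, and the 250 bases before the start are printed 5′ to 3′ for 3 of them, chosen as rich and poor examples, with every CpG in capitals. The BNIP3 window lies at chr10:131981924-131982173 on the minus strand, the BCL2L11 window at chr2:111120664-111120913 on the plus strand and the BAK1 window at chr6:33580277-33580526 on the minus strand.
BNIP3: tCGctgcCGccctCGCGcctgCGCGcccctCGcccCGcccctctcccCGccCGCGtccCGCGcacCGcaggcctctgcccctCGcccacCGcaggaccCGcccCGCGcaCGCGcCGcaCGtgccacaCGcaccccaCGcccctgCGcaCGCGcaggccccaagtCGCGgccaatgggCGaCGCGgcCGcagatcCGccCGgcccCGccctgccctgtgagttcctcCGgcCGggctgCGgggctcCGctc
BCL2L11: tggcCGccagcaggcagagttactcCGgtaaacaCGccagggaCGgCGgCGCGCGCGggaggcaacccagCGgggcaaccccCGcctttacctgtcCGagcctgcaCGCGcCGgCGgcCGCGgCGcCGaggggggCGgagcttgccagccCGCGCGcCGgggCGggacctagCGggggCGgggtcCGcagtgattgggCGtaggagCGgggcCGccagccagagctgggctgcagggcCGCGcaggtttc
BAK1: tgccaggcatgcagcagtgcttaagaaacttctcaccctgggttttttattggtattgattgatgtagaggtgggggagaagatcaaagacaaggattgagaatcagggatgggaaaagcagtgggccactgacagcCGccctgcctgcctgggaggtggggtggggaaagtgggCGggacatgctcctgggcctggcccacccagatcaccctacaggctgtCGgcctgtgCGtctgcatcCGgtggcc

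The BNIP3 window held 41 CpG dinucleotides, a number that 1.74% of 34943 such windows reached, against a median of 11 over all. BCL2L11 had 34, reached by 6.83%, and BAK1 had 5, reached by 65.6%. BCL2 had 24, and the several starts of BCL2L1, BID and BAD had 12 to 17, 4 to 30 and 17 to 20. The core of the hypoxia response element was searched on both strands as ACGTG and as GCGTG, which can overlap each other and a CpG. BNIP3 had 2 matches to ACGTG, both from the palindrome CACGTG, and 4 to GCGTG. Of all windows 18.5% held the former core and 32.2% the latter. BCL2L11 had 2 matches to the latter, and BAK1 had none to either. BID also had windows with 2 matches to ACGTG, and BAD, BCL2L1 and BID had windows with 1 match to GCGTG. These matches describe sequence only, since methylation of these promoters was not analysed here.

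No member of the family rose or fell in the comparison over both lines. The largest increase was that of BNIP3, 1.21-fold on the mean of the 2 lines (log2 ratio 0.28, 95% interval −0.15 to 0.70), and the largest decrease that of BCL2, 0.867-fold (−0.21, −0.63 to 0.22). The 5 members measured on all 4 arrays were BCL2, BID, BCL2L11, BNIP3 and BNIP3L, and 0 passed limma at an adjusted p under 0.05 (0 also at an unadjusted p under 0.05), where 0.231% of 9073 genes passed, 0.187% higher and 0.0441% lower, and 4.98% had an unadjusted p under 0.05. A ratio of 1 sign on all 4 arrays was shown by 0 of the 5, where 7.89% of genes showed it. Their adjusted p values lay between 0.989 and 0.999, each with an SE of 0.216, and in the labels' channel order 0 passed, where 0.65% of genes did. The intervals still allow BNIP3 up to 1.62-fold higher and BCL2 down to 0.647-fold. Their width comes from a variance shared by all genes, so it does not show the spread of a single gene. Arrays were also simulated with the SD of gene ratios of each real array, not with this SE. Simulated arrays were drawn independently of each other, unlike the real ones (r −0.45 between the DLD-1 arrays). In the simulated arrays the test recovered 22% of genes changed 1.5-fold and 84% of those changed 2-fold in both lines. These shares are not the power of the test on the real arrays. A change of the size seen for BNIP3 would mostly be missed in that setting. MCL1, BAK1, BIK and BCL2L1 did not have signal above background on every array and were described by line.

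**Figure D1:**
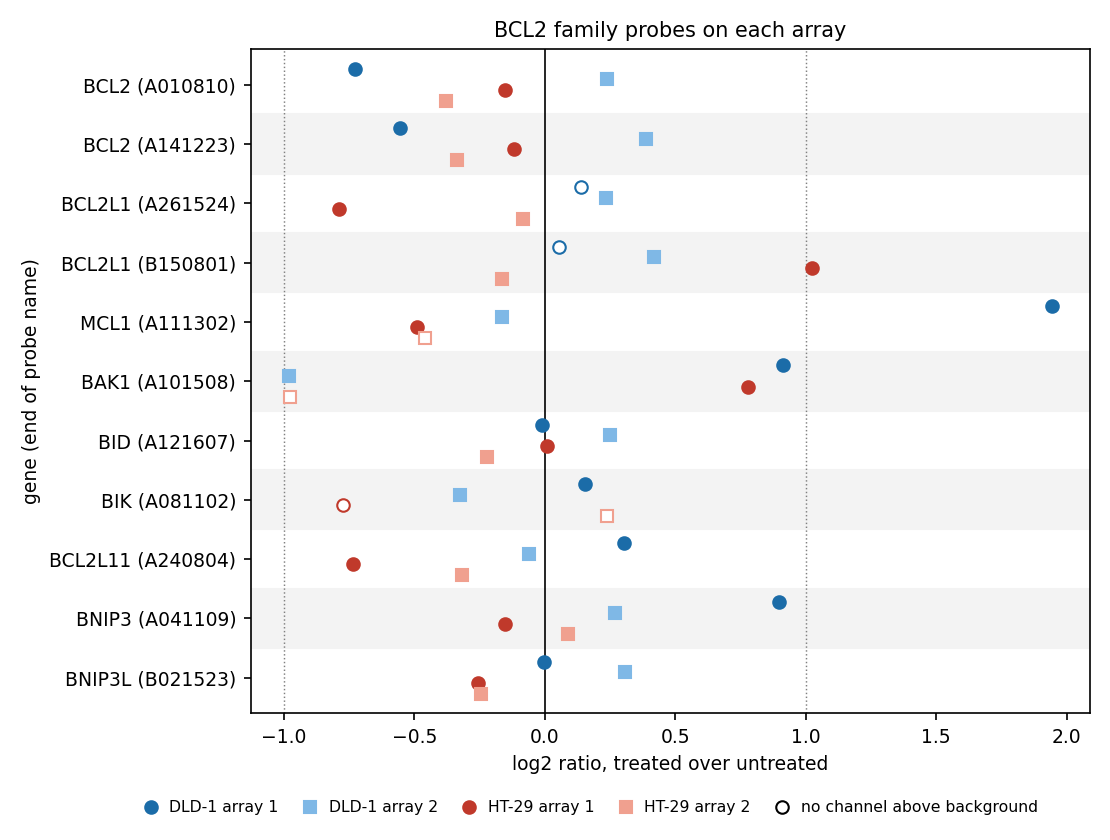
Log2 ratio of treated over untreated signal (horizontal axis) for each of the 11 probes of the family (rows), with 1 point per array under the working reading; open points had no channel above background and dotted lines mark a ratio of 2-fold. BCL2, BID and BNIP3L lie within 0.73 of 0 on every array, MCL1 reaches 1.94 on DLD-1 array 1 alone, and the BAK1 points lie to the right for array 1 and to the left for array 2 of both lines.

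Among the proteins that restrain cell death, BCL2 was measured by 2 probes whose ratios followed each other closely. In DLD-1 the probe for NM_000633 had ratios of −0.73 and 0.24 on arrays 1 and 2, and the probe for M13994 −0.56 and 0.39. In HT-29 these probes had −0.15 and −0.38, and −0.12 and −0.34. The probes differed by 0.036 to 0.17 on any array, while the DLD-1 arrays differed from each other by far more and in sign. Averaged over probes, BCL2 was −0.16 ± 0.68 (SD of 2 arrays) in DLD-1 and −0.25 ± 0.16 in HT-29. Treated signal of the first probe was not above background on DLD-1 array 1, where background-subtracted intensity was 463 untreated and 352 treated. With the median of each printed block of the slide set to 0, BCL2 had −0.14 and −0.08 in DLD-1 and 0.21 and −0.12 in HT-29, values smaller in DLD-1 and of another sign on 2 arrays. In the labels' channel order the line values were −0.48 and 0.11.

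BCL2L1, whose main product BCL-XL protects many epithelial tumours, was read by 2 probes that did not behave alike. In HT-29 the probe named by its description had −0.79 and −0.08 on arrays 1 and 2, and the probe for U72398, described as the BCL-X beta form, had 1.02 and −0.17. On HT-29 array 1 the probes therefore lay on opposite sides of 0, and the untreated channel of the U72398 probe was at background there. Their mean of −0.0035 ± 0.17 therefore joins unlike probes. In DLD-1 neither probe was above background on array 1, and on array 2 they had 0.24 and 0.42.

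MCL1, a short-lived protein that binds BAK1 and BCL2L11, was dim in both lines, with 3 of its 8 channel readings above background. In DLD-1 the first hybridisation gave 1.94, from a background-subtracted intensity of 412 in the treated channel against an untreated channel that did not exceed its background. The second gave −0.16, with 168 treated, which was not above background, and 292 untreated. The line value of 0.89 ± 1.49, at percentile 99.4 of 10164 genes, thus rested on array 1, and its SD exceeded it. In the labels' channel order the DLD-1 mean was 1.05, at percentile 99.3, with 1 sign on both arrays but an untreated channel at background on both. Under either reading this was the highest DLD-1 mean of the members measured there. In HT-29 only the treated channel of array 1 was above background, and the ratios of −0.49 and −0.46 are those of signal near background. The normalised ratio column of the scanner files is blank for MCL1 on all 4 arrays.

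BAK1, the pore-forming member of the family, had ratios of 0.91 and −0.98 on arrays 1 and 2 of DLD-1. HT-29 gave 0.78 and −0.98, with no channel above background on array 2. The ratio was thus positive on array 1 and negative on array 2 of both lines, and the DLD-1 mean under the working reading was −0.03 ± 1.34. In the labels' channel order the DLD-1 arrays instead had 1 sign and a mean of 0.95, set against an untreated channel at background on both, so that no exact fold is given. Of 10164 genes measured in that line 156, 1.53%, were at least 0.75 above 0 on array 1 and at least 0.75 below 0 on array 2, a limit set after the BAK1 values were seen. In DLD-1 the BAK1 channel above background was treated on array 1 (intensity 1219 against 322) and untreated on array 2 (1305 against 436) under the working reading, which is file channel 2 and then file channel 1. Whether treatment or dye set this signal cannot be told apart without knowing which channel was treated on array 2. The normalised ratio column is blank for BAK1 as well.

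Of the BH3-only genes, BID, whose protein links death receptors to mitochondria after cleavage by caspase 8, varied least. Its ratios were −0.01 and 0.25 in DLD-1 and 0.0089 and −0.22 in HT-29, with every channel above background. The mean over the lines was 0.0071 (95% interval −0.42 to 0.43), and −0.0080 in the labels' channel order. BCL2L11, whose product BIM binds all the protective members, had 0.31 and −0.06 in DLD-1 and −0.73 and −0.32 in HT-29. In HT-29 it was lower on both arrays, 0.695-fold on average (−0.53 ± 0.29, percentile 4.77 of 10361 genes), while the DLD-1 mean was 0.12 ± 0.26, and the HT-29 arrays lay below both DLD-1 arrays. With 1 replicate per line the difference of −0.65 between the lines was not tested. Under the labels' channel order BCL2L11 was −0.21 in HT-29, at percentile 20.7, and 0.18 in DLD-1. With block medians set to 0 it was 0.47 and −0.40 in DLD-1 and −0.47 and −0.02 in HT-29, so that the lines overlapped and differed by −0.28. Background-subtracted BCL2L11 intensity on the HT-29 arrays was 395 untreated and 251 treated on array 1, and 2675 and 2583 on array 2.

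BIK, a BH3-only protein of the endoplasmic reticulum, had a probe above background in DLD-1 alone. There 3 of 4 channel readings were above background, and the ratios were 0.15 and −0.33 (mean −0.09 ± 0.34, and 0.24 in the labels' channel order), with background-subtracted intensity of 520 untreated and 938 treated on array 1 and of 219 and 84.8 on array 2. In HT-29 none of the 4 channel readings, treated or untreated, was above background, so no return of signal after the drug was detectable there with this probe. Another probe, listed for both TTLL1 and BIK and not counted as a member, was above background in both channels of both HT-29 arrays, so the data do not show that BIK was absent from that line. The difference in detection between the lines was not tested.

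BNIP3 gave the highest family ratio in DLD-1 among members with every channel above background. Its ratios were 0.90 and 0.27 in DLD-1 and −0.15 and 0.09 in HT-29, and the DLD-1 arrays were both higher than the HT-29 arrays. The DLD-1 mean was 0.58 ± 0.44, 1.50-fold, at percentile 97.7 of the genes of that line, and the HT-29 mean was −0.03 ± 0.17. On DLD-1 array 1 background-subtracted intensity was 1170 untreated and 3015 treated, and on array 2 it was 6419 and 5827, so the increase came mainly from array 1. Over both lines BNIP3 did not pass limma (mean 0.28, adjusted p = 0.989), and its mean stayed positive under every alternative tried, from 0.10 in the labels' channel order to 0.43 without DLD-1 array 2. In the labels' order the DLD-1 mean was 0.31, at percentile 72.9, and the HT-29 mean −0.12. With block medians set to 0 BNIP3 had 1.04 and 0.04 in DLD-1 and −0.15 and 0.58 in HT-29, so that the lines overlapped, with an HT-29 mean of 0.22. Untreated BNIP3 signal was above background on both arrays of both lines, so the gene did not start from background in either line. Its window had the most CpG of the member windows examined, BNIP3L having been left out with its chromosome.

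BNIP3L, whose probe is described in the scanner files as MY020 protein and carries the symbol in the platform table, had −0.0051 and 0.31 in DLD-1 and −0.26 and −0.24 in HT-29. The HT-29 arrays were alike (−0.25 ± 0.0080) and lay below both DLD-1 arrays (0.15 ± 0.22). With block medians set to 0 the BNIP3L ratios were 0.19 and 0.03 in DLD-1 and 0.02 and 0.02 in HT-29, so the negative HT-29 values did not keep their sign. The labels' channel order gave line means of −0.16 for DLD-1 and −0.0056 for HT-29, which turns their order. Over both lines the mean was −0.05 (limma adjusted p = 0.996).

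**Figure D2:**
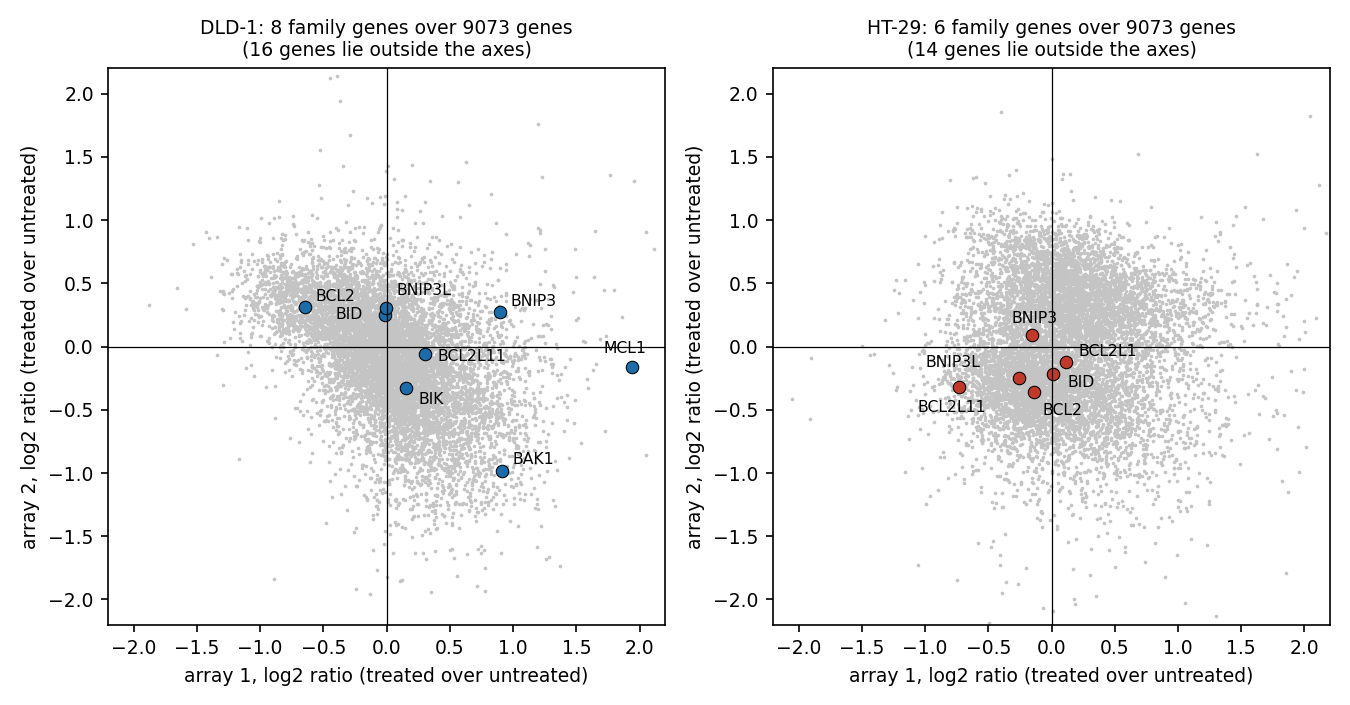
Log2 ratio of treated over untreated signal on array 1 (horizontal axis) and on array 2 (vertical axis) of DLD-1 (left) and HT-29 (right); grey points are 9073 genes measured on all 4 arrays and coloured points the 8 and 6 family genes measured in that line. BNIP3 alone of the DLD-1 members lies at the upper right, where both arrays are positive, and BAK1 lies at 0.91 and −0.98 in the lower right.

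In DLD-1 the 8 measured members had a median of 0.12, with 5 positive and 3 negative, beside a median of −0.04 over 10164 genes, of which 43.5% were positive. In HT-29 all 6 measured members had means below 0, from −0.53 for BCL2L11 to −0.0035 for BCL2L1, with a median of −0.18, where 49.5% of 10361 genes were positive. This order did not hold in the labels' channel order, where BCL2, BCL2L1 and BID had 0.11, 0.12 and 0.11 and the others lay below 0. Nor did it hold with block medians set to 0, where BCL2, BID, BNIP3 and BNIP3L had HT-29 means of 0.05, 0.13, 0.22 and 0.02. BCL2L11 stayed below 0 there, with an HT-29 mean of −0.24. For BCL2L1 the HT-29 values of that setting are given by probe, array 1 first. They were −0.40 then 0.11 for the probe named by its description, and 0.97 then 0.24 for U72398. Only the value of −0.40 was below 0. The same sign on both arrays was found for 1 of 8 members in DLD-1, BNIP3, where 32.7% of genes had it, and for BCL2, BCL2L11 and BNIP3L among 6 members in HT-29, where 56.3% had it. With array 2 turned it was found for 7 of 8 in DLD-1, where 67.3% of genes had it, and for 3 of 6 in HT-29, where 43.7% had it.

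A ratio of at least 2-fold with 1 sign on both arrays was reached by 0 members in DLD-1, where 0.123% of 21197 probes reached it, and by 0 in HT-29, where 0.128% of 22642 probes did. In the labels' channel order 0 members reached it in either line, where 0.382% and 0.309% of probes did. On DLD-1 array 1 alone MCL1 would count, where 978 of 22073 probes reached 2-fold. On HT-29 array 1 alone BCL2L1 would count, where 1367 of 25047 probes did. For each of these members the untreated channel was at background. The pattern of a silent gene that returns, untreated signal at background and treated signal above it on both arrays of a line, depended on the reading; it was counted after the values of MCL1 and BAK1 were seen. Under the working reading it was shown by 0 members in DLD-1 and 0 in HT-29, where 0.146% and 0.424% of probes showed it. In the labels' channel order MCL1 and BAK1 showed it in DLD-1 and 0 members in HT-29, where 1.79% and 1.5% of probes did.

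Levels of the 2 lines were compared by the average log2 signal of both channels minus the median of the array, a value that does not depend on which channel was treated. With its 2 probes averaged, BCL2 had average signals of −0.54 and 1.10 on the DLD-1 arrays and 1.36 and 0.90 on the HT-29 arrays, and the lines overlapped. Taken singly, the BCL2 probes differed in this. The NM_000633 probe had −0.999 and 1.07 in DLD-1 against 1.22 and 1.10 in HT-29, without overlap, and line means 1.13 apart. The M13994 probe had −0.08 and 1.12 against 1.49 and 0.69, with overlap, and line means 0.57 apart. BNIP3 had 0.75 and 2.14 against 1.63 and 0.87, and BID 0.83 and 1.72 against 0.85 and 1.15. For these genes, with probes averaged, the repeat arrays of 1 line lay further apart than the line means. The line means differed by 0.85 for BCL2, −0.20 for BNIP3 and −0.28 for BID (HT-29 minus DLD-1). Over all 9073 genes the median of this difference was −0.32, with an SD between genes of 0.76. BNIP3L had 1.88 and 0.96 in DLD-1 and 1.35 and 0.30 in HT-29, and BCL2L11 −0.98 and −0.16 against −0.74 and 0.00073. With probes averaged, none of the 5 members measured on all arrays had line means at least 1 apart with no overlap of arrays, where 16.7% of 9073 genes did. The BCL2L1 probes, at background on DLD-1 array 1, had HT-29 means 1.10 and 1.15 above DLD-1, with the arrays overlapping. BIK had −0.44 and −2.10 in DLD-1 and −2.04 and −3.99 in HT-29, where it was at background. BAK1 had −0.51 and −0.56 in DLD-1 and −0.86 and −1.59 in HT-29, with no overlap, but its difference of −0.69 includes an HT-29 array at background.

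**Figure D3:**
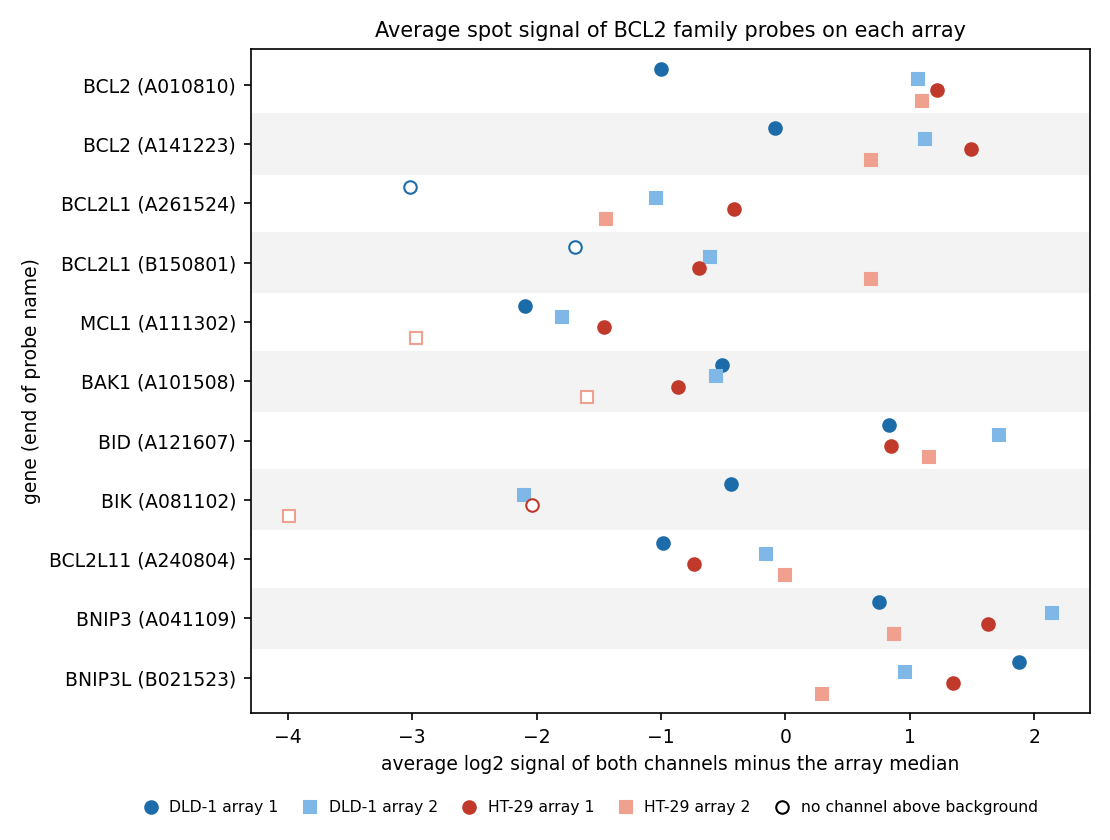
Average log2 signal of both channels minus the array median (horizontal axis) for each of the 11 probes (rows), with 1 point per array and open points where no channel was above background; positions are to be compared within a row, not between probes. The DLD-1 and HT-29 points are interleaved for BNIP3, BID and BCL2L11, and both HT-29 points of BIK are open.

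Of genes that act with the family, 0 passed limma in each of 6 lists under either reading, where 0.231% of all genes passed in the working reading and 0.65% in the labels' channel order. At those shares 0 calls among 8 to 14 genes says little about a list. An unadjusted limma p under 0.05 was reached by 4.98% of 9073 genes in the working reading. Of the lists, 1 of 8 tested partners genes reached it, 1 of 14 hypoxia genes, 2 of 11 mitophagy genes and 0 in the others. Among the other BCL2 family and BNIP genes 10 of 15 were tested, with a median mean log2 ratio of −0.0080 beside 0.0073 over all genes (0.03 and 0.05 in the labels' order). PMAIP1, which encodes the BH3-only protein NOXA, had the highest mean at 0.33 (DLD-1 0.22 ± 0.81, HT-29 0.43 ± 0.12) and BCL2L14 the lowest at −0.27, while in the labels' order they had 0.24 and −0.09. BNIP1, a protein of vesicle fusion, was negative on all 4 arrays under the working reading with a mean of −0.25, but had 0.02 and mixed signs in the labels' order. Of 20 genes of the apoptosome, caspases and their inhibitors, 13 were tested, with a median of −0.0077, or 0.15 in the labels' order. The initiator caspase CASP9 had the lowest mean, −0.17, with 0.77 and −0.84 in the DLD-1 arrays and 0.41 and −1.02 in those of HT-29. In the labels' order CASP9 was instead positive on all 4 arrays, with a mean of 0.76 (limma adjusted p = 0.11). Of 11 death receptor pathway genes 8 were tested, with a median of 0.02, or 0.13 in the labels' order. The adaptor kinase RIPK1 had −0.35 and the ligand FASLG 0.18, and in the labels' order −0.44 and 0.23.

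Of 16 genes for partners and turnover of BCL2 proteins, 8 were tested, with a median of 0.18 (0.17 in the labels' channel order). DYNLL1, a dynein light chain that holds BCL2L11 on microtubules, had 0.14 ± 0.53 in DLD-1 and 0.88 ± 0.01 in HT-29 (mean 0.51, limma adjusted p = 0.726). In the labels' order its HT-29 mean was 0.01 and its mean over both lines 0.19. The co-chaperone BAG3 had the lowest mean at −0.06, which was 0.06 in that order. Of 22 hypoxia response genes, the group to which BNIP3 and BNIP3L belong, 14 were tested, with a median of 0.06 in both lines together and of 0.06 and −0.02 in DLD-1 and HT-29. In the labels' order the median over both lines was −0.03. ADM, which encodes the vasodilator peptide adrenomedullin, was positive on all 4 arrays under the working reading, its DLD-1 mean being 0.29 ± 0.26 and its HT-29 mean 0.65 ± 0.07 (mean 0.47, limma adjusted p = 0.852). CA9, a carbonic anhydrase of hypoxic tumours, was also positive on all 4 with a mean of 0.26. In the labels' order both had mixed signs, with means of 0.12 for ADM and −0.06 for CA9. P4HA1, a collagen prolyl hydroxylase, had the lowest mean of −0.35, and −0.34 in that order. Of 15 genes of mitophagy and autophagy 11 were tested, with a median of 0.20 (0.14 in the labels' order). MAP1LC3B, the LC3 protein to which BNIP3 and BNIP3L bind, had the highest mean of 0.59 (limma adjusted p = 0.482), its DLD-1 arrays at 0.94 and 0.14 and its HT-29 arrays at 1.77 and −0.50, and 0.77 in the labels' order. PHB2, a mitophagy receptor of the inner membrane, had the lowest mean of −0.18, but 0.40 in the labels' order.

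**Figure D4:**
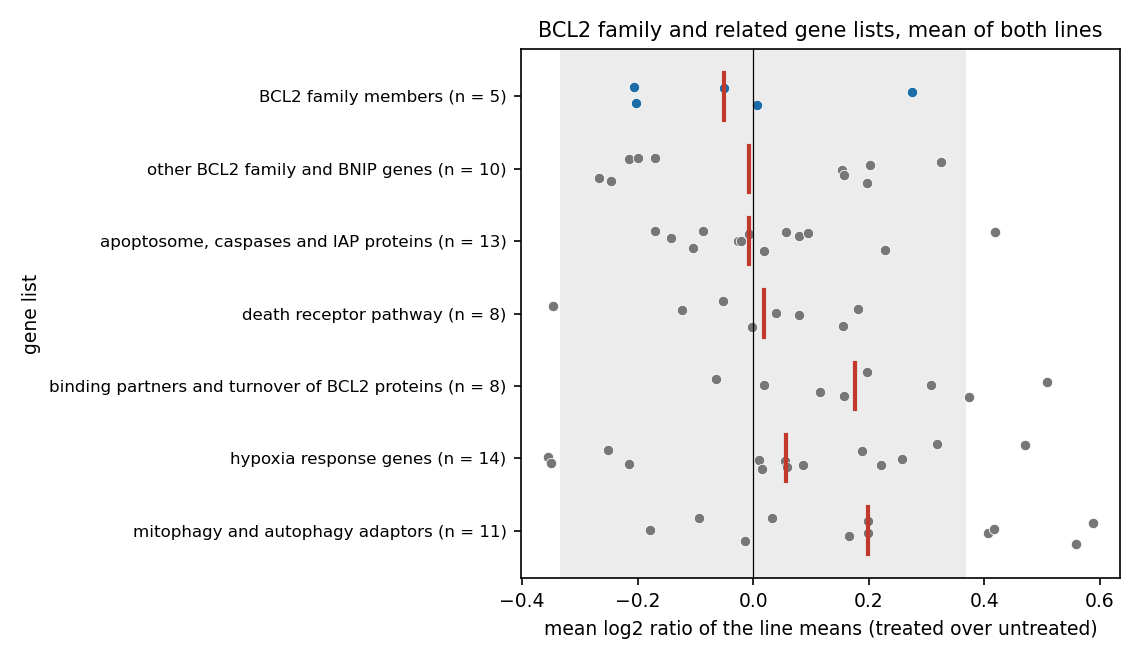
Mean log2 ratio of the 2 line means (horizontal axis) for the genes of each list measured on all 4 arrays (rows), with red bars at list medians and a grey band from the 5th to the 95th percentile of 9073 genes (−0.33 to 0.37). The 5 family members lie between −0.21 and 0.28, inside the band, and none of the points shown passed limma over all genes.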

How the data were processed

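Per the labels, total RNA was amplified to amino allyl aRNA and coupled to Cy3 or Cy5. The deposited scanner files hold spot intensity, local background and its SD for both channels on a linear intensity scale, and a log2 ratio that the authors centred on each array. For scanner and software, not given in the sources used here, nothing was assumed. The normexp correction (offset 50) and a loess curve per array were run in limma 3.58.1 (R 4.3.3), leaving out control spots and 49 probes marked bad. A probe had to exceed background in at least 1 channel of each array used. Probes of a gene were averaged, and names were updated through RefSeq. The 2 arrays of a line were averaged, and both line means entered lmFit and eBayes as a two-sided test against 0, adjusted by Benjamini-Hochberg over 9073 genes. limma found 1 shared variance for all genes, and 2 line means alone cannot reach a two-sided exact sign-flip p under 0.5. Steps were tested on simulated data. Within a line there is no test. Members, lists and the channel reading were chosen with earlier results of these data known. Named were all members and, per list, any gene past the threshold, the 2 largest of 1 sign on all 4 arrays, and the highest and lowest mean. One gene that this rule names is not reported here. Alternatives were the labels' channel order, block medians set to 0, the authors' subtracted intensities (raised to at least 50), the deposited log2 ratios, other filters on dim probes, Aquantile for levels, and each array left out.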

Additional observations from a re-analysis of the deposited data

Results flagged for a closer look

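BAG3, a co-chaperone that binds BCL2, had ratios of 0.02 and 0.23 in DLD-1 and of −0.03 and −0.47 in HT-29, so that both arrays of the lines lay on opposite sides of 0. The HT-29 mean minus the DLD-1 mean was −0.38, a difference that was not tested. In the labels' channel order BAG3 had −0.11 in DLD-1 and 0.22 in HT-29, a difference of 0.33 in the opposite direction, and with block medians set to 0 the difference was 0.0064.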

How the results depend on the processing

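No paired analysis was possible because array numbers name hybridisations and each line is 1 replicate. Under every alternative run over both lines, 0 family genes passed limma, with adjusted p values of 0.25 to 0.9999 over 50 values of the 5 members. The sign of a member's mean changed in 7 of these values, 4 of them of BID, 2 of BNIP3L and 1 of BCL2. Leaving out each array gave 0 to 1 members at 2-fold in DLD-1 (MCL1 without array 2, where 978 of 22073 probes reached it). Leaving out each array also gave 0 to 1 in HT-29 (BCL2L1 without array 2, where 1367 of 25047 probes did). It gave 0 to 3 genes of the 6 lists past the threshold, with GABARAPL2, MAP1LC3B and PINK1 passing without DLD-1 array 2, where 357 of 9230 genes passed. It gave 0 to 2 members with separate average signals between the lines. Over both lines 21 genes passed, against 59 in the labels' channel order, 4 with block medians set to 0, 6 with the authors' subtraction, 12 with deposited ratios, 40 without a filter and 11 with both channels above background; leaving out array 1 gave 8 (DLD-1) and 15 (HT-29), and leaving out HT-29 array 2 gave 5. For MCL1 and BAK1 the pattern of return in DLD-1 rests on the channel reading. With block medians set to 0 the BNIP3 mean was 0.38 (unadjusted p = 0.0373, adjusted p = 0.958). Higher against lower calls were 17 and 4 in the main setting and 57 and 2 in the labels' order. Signal near background limits MCL1, BAK1, BIK and BCL2L1.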

Other observations

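Another probe is listed in the platform table for both TTLL1 and BIK and was left out above. Its ratios were 0.50 and −0.59 in DLD-1 and −0.06 and 0.61 in HT-29, where both channels were above background on both arrays, so it did not share the absence of signal of the BIK probe in that line.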
